A study of Rattus norvegicus with 84 samples.

Results

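The 31 genes described here belong to the lysosome and to autophagy and were taken by symbol, with results of these data known: 20 encode lysosomal enzymes, lipid carriers and membrane proteins, 10 encode proteins of autophagy, and 1 is Tfeb. All 31 were found, each as a single locus, among the 17502 loci measured. Kidney, liver and gastrocnemius (a calf muscle) were taken from male Sprague Dawley rats, which are outbred, and total RNA of each tissue was sequenced. Each tissue has 8 libraries of 24-month rats given RAD001, 10 libraries of 24-month rats given vehicle and 10 libraries of 6-month rats given vehicle, 84 in all. RAD001, also called everolimus, is a rapamycin derivative that inhibits mTORC1. Aged rats entered treatment at 22.5 months and young rats at 4.5 months, and treatment lasted 6 weeks. RAD001 was given by mouth 1 time a week, 7 doses in all, with vehicle on the other days, and the controls had vehicle every day, a microemulsion in water with methylcellulose. No young group received RAD001. These are called treated, aged vehicle and young vehicle below. The labels do not say which libraries come from 1 rat or that each library is a separate rat, so every p-value measures the spread between libraries, which may be technical.

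Lysosomes are acidic vesicles in which hydrolases break down protein, sugar chains and lipids, and autophagy delivers the cell's own material to them in double-membraned autophagosomes. The kinase mTORC1 sits on the lysosome when nutrients are plentiful, where it restrains both the autophagy-starting kinase ULK1 and the transcription factor TFEB. TFEB and its relatives bind the sequence CACGTG, and many genes of lysosomal enzymes carry it near their start. Kidney tubule cells take up filtered protein and break it down in lysosomes, hepatocytes use autophagy during fasting, and macrophages of every tissue are rich in lysosomes.

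Because several of these genes are known TFEB targets, the stretch before the start of each gene was searched for this motif in RefSeq promoters of assembly GRCr8 (250 bases before to 50 after the start, both strands). Promoters were found for 25 of the 31 genes; Becn1, Ctsb, Hexa, Map1lc3a, Psap and Scpep1 are named only. CACGTG was present in 7 of the 25, which is 28%, against 6.65% of all 27457 promoters and 7.27% of those of protein-coding genes. The longer TCACGTG, which contains CACGTG, was present in 5 of the 25 (20%), all lysosomal, against 3.43% of all promoters. The full palindrome of the CLEAR element bound by TFEB, which contains both, was in none of the 25 and in 0.277% of all promoters. Among the other lysosome and autophagy genes of the lists used further on, 20 of 105 promoters held CACGTG (19.0%). The bases up to the start of the 7 genes are printed 5′ to 3′ on the strand of the gene, with CACGTG in capitals, since these genes recur in the comparisons. A match describes the letters of this window and is no evidence of binding.
Lamp1, chr16:83075064-83075263, minus strand: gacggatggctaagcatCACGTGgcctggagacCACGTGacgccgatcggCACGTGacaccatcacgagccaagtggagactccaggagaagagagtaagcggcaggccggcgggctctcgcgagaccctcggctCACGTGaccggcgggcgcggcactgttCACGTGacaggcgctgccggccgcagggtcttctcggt
Ctsd, chr1:206968822-206968931, minus strand: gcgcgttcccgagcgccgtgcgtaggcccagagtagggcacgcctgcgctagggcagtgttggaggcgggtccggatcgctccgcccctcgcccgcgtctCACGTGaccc
Mcoln1, chr12:6358148-6358257, plus strand: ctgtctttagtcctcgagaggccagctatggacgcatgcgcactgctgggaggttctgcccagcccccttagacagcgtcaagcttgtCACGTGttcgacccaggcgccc
Glb1, chr8:122963608-122963717, plus strand: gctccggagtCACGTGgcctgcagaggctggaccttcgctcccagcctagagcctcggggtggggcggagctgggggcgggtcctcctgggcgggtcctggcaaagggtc
Gaa, chr10:105028245-105028354, plus strand: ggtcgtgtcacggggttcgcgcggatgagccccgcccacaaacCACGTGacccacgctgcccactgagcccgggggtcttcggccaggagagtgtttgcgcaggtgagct
Bnip3, chr1:203154963-203155072, minus strand: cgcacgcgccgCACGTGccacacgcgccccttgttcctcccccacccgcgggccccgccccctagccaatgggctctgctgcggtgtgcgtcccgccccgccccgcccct
Atg5, chr20:49380725-49380834, plus strand: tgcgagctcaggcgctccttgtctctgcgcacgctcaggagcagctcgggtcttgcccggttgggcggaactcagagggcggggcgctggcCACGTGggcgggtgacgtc
Lamp1 held 5 copies within these 200 bases, and the other genes show 1 copy each. Ctsd has another copy further upstream and Mcoln1 another just after its start.

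The deposited values are mean read coverage per base of exon, scaled by the authors per library. Here they were further scaled between the libraries of each tissue, and all values below are on this scaled coverage unless stated otherwise. Changes are differences of group means of log2(scaled coverage + 0.1), which understates the change of genes near or under 0.1, such as Gpnmb in young kidney. A gene was called when its limma p, Benjamini-Hochberg adjusted over all loci of that tissue and comparison, was below 0.05, and adjusted p is used in this sense throughout. All 31 genes passed the filter on low values in every tissue. Relative depth spanned 0.826 to 1.41 over the libraries, and 11697 to 13767 loci were above 0. The tissue labels matched the summed coverage of 10 markers each. Tubule markers summed to at least 173 in every kidney library and at most 11.3 in any other. Hepatocyte markers summed to at least 3511 in every liver library and at most 52.1 in any other. Fibre markers summed to at least 3923 in every muscle library and at most 11.1 in any other. The tissue is bulk, so fewer cells of a type and less RNA per cell cannot be told apart.

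Levels per base, here scaled over all 84 libraries, differed between tissues more than between groups for many members. By this scale 13 members were highest in kidney, 9 in liver and 9 in gastrocnemius. On the deposited values the counts were 17, 7 and 7, with Ctsd, Lamp2, Npc2 and Map1lc3b then highest in kidney. Ctsl, a cysteine protease abundant in kidney tubules, averaged 73.7 ± 7.40 in treated, 101 ± 24.0 in aged vehicle and 86.5 ± 10.4 in young vehicle kidneys (SD, n = 8, 10 and 10). The same gene averaged 37.3 ± 5.17, 49.4 ± 6.86 and 40.8 ± 5.45 in treated, aged vehicle and young vehicle livers, and 8.22 ± 1.37, 10.3 ± 1.80 and 5.27 ± 0.534 in treated, aged vehicle and young vehicle muscles. Map1lc3a and Bnip3 were highest in muscle: in aged vehicle rats Map1lc3a averaged 9.19 ± 0.698 in muscle, 2.21 ± 0.198 in kidney and 0.932 ± 0.173 in liver, and Bnip3 averaged 12.2 ± 1.69 in muscle, 3.30 ± 0.397 in kidney and 3.04 ± 0.660 in liver. Tfeb was low everywhere, and was highest in muscle with 1.11 ± 0.114, against 0.369 ± 0.0527 in kidney and 0.151 ± 0.0363 in liver of aged vehicle rats.

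**Figure D1:**
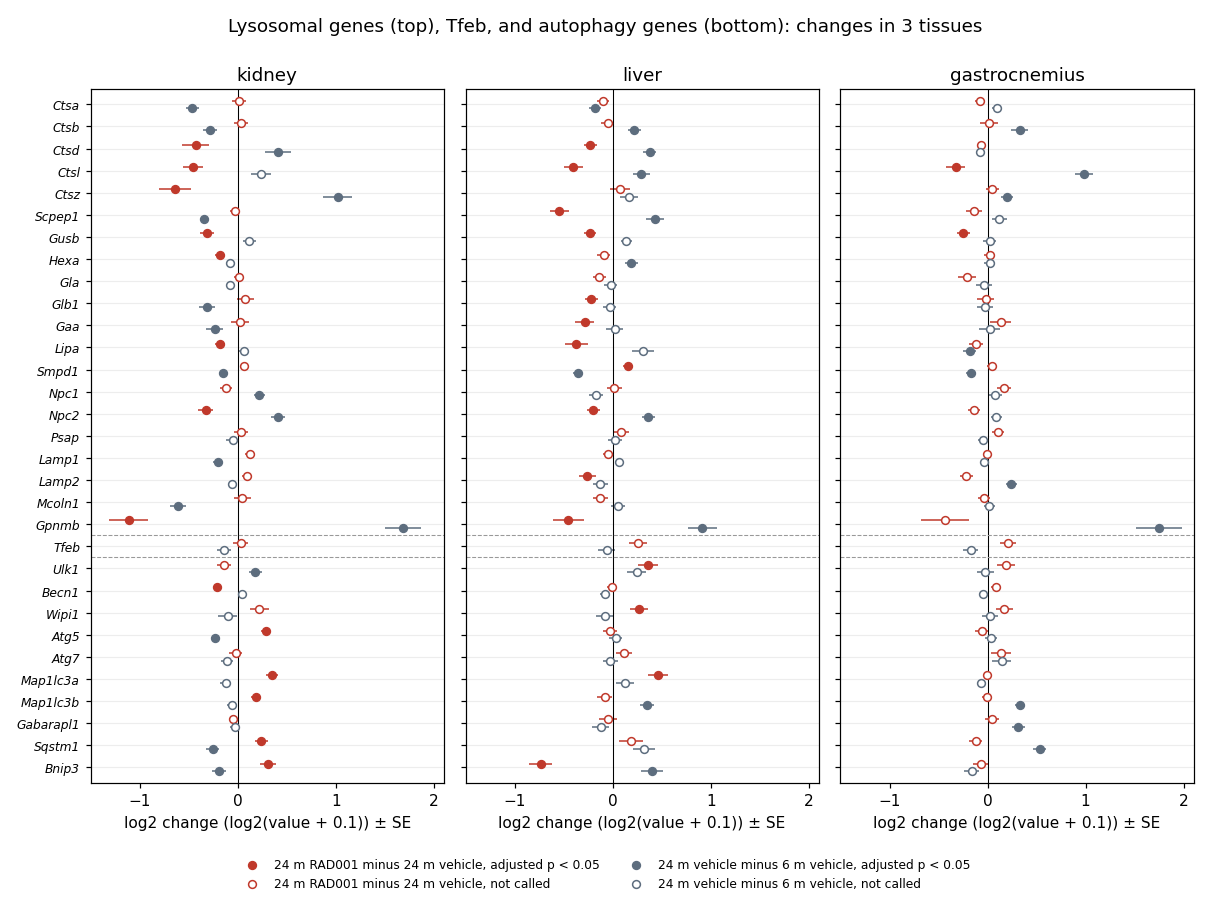
Log2 change ± SE of the 31 genes in kidney, liver and gastrocnemius (3 panels); red points are treated minus aged vehicle, grey points aged vehicle minus young vehicle, and filled points passed adjusted p below 0.05. Lysosomal genes are above the dashed lines, Tfeb between them and autophagy genes below; Gpnmb has the largest rise with age in each panel, and in muscle only 2 red points are filled.

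The first comparison asked which of these genes differ between old and young kidney. In aged vehicle kidneys 5 of 20 lysosomal genes were higher than in young vehicle kidneys and 8 were lower. The genes that rose were Gpnmb, Ctsz, Ctsd, Npc2 and Npc1, and those that fell were Mcoln1, Ctsa, Scpep1, Glb1, Ctsb, Gaa, Lamp1 and Smpd1. Of 10 autophagy genes, Ulk1 rose and Atg5, Sqstm1 and Bnip3 fell. In all, 17 of 31 genes (54.8%) were called, 6 higher and 11 lower, while 43% of all 10447 loci tested were called (20.8% higher, 22.2% lower), a background against which the members' share should be read. Of the 7 genes with CACGTG, Ctsd was higher and Mcoln1, Glb1, Gaa, Lamp1, Atg5 and Bnip3 were lower. The count differs by comparison, as does the share of all tested loci with the motif that were called. Of these 7 genes, 3 were called with RAD001 in kidney, beside 35.1% of loci with the motif. In liver 2 were called with age, beside 16.2%, and 4 with RAD001, beside 16.9%. In gastrocnemius none was called with age, beside 36.3%, or with RAD001 against aged vehicle, beside 3.65%. Between treated and young vehicle libraries 2 were called in kidney, beside 27.3%, 3 in liver, beside 32%, and 2 in gastrocnemius, beside 40.4%. Over all tested loci with the motif, 40.3% were called with age in kidney, near the 43% of all loci. The median change of the 31 genes was -0.08, against -0.00075 for all loci tested.

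Gpnmb, a transmembrane glycoprotein of lysosomes made by macrophages among other cells, lies at chr4:143383025-143404104 in rn5. Its lowest, median and highest scaled coverage were 0.0749, 0.17 and 0.289 in treated kidneys, 0.181, 0.488 and 0.847 in aged vehicle kidneys, and 0.0363, 0.0864 and 0.133 in young vehicle kidneys. Every aged vehicle kidney lay above every young vehicle kidney, and the treated kidneys fell between, overlapping both. On the log2 scale Gpnmb rose by 1.68 ± 0.19 (SE, adjusted p = 1.44e-07) with age. Ctsz, cathepsin Z, a carboxypeptidase, had a lowest, median and highest value of 0.707, 0.969 and 1.46 in treated kidneys, 0.907, 1.66 and 2.49 in aged vehicle kidneys, and 0.656, 0.766 and 0.846 in young vehicle kidneys. Here too the aged and young vehicle kidneys did not overlap, as in 3 of 31 members and 3.45% of all loci for this comparison, and Ctsz rose by 1.02 ± 0.15 (SE, adjusted p = 5.91e-06) with age. Ctsd, the aspartic protease cathepsin D, had 13.8, 15.9 and 17.4 in treated kidneys, 13.3, 20.1 and 41.1 in aged vehicle kidneys, and 14.7, 16.3 and 17.9 in young vehicle kidneys. Its rise with age of 0.41 ± 0.13 (SE, adjusted p = 0.0136) came with overlap of the groups, and the aged vehicle kidneys had the widest range. Npc2, the soluble cholesterol-binding protein of the lysosome, had 4.09, 4.41 and 4.85 in treated kidneys, 4.43, 5.57 and 6.84 in aged vehicle kidneys, and 3.83, 4.15 and 4.51 in young vehicle kidneys, and rose by 0.41 ± 0.071 (SE, adjusted p = 3.48e-05) with age. Its membrane partner in cholesterol export, Npc1, rose by 0.22 ± 0.055 (SE, adjusted p = 0.00189), at coverage near 0.2 in every group.

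The genes that fell with age in kidney were 6 enzymes and 2 membrane proteins. Mcoln1, the calcium channel TRPML1 of the lysosomal membrane (chr12:4216867-4230870 in rn5), had a lowest, median and highest value of 1.81, 1.94 and 2.28 in treated kidneys, 1.54, 1.91 and 2.35 in aged vehicle kidneys, and 2.05, 2.93 and 4.01 in young vehicle kidneys. It fell by 0.61 ± 0.083 (SE, adjusted p = 2.12e-06) with age. Ctsa, the serine carboxypeptidase that also protects beta-galactosidase, had 25.8, 27.2 and 29.9 in treated kidneys, 21.5, 27.4 and 32.8 in aged vehicle kidneys, and 30.8, 38.2 and 42.7 in young vehicle kidneys. It fell by 0.46 ± 0.067 (SE, adjusted p = 4.03e-06) with age, and its ranges in aged and young vehicle kidneys overlapped slightly. Scpep1, a related serine carboxypeptidase, had 7.18, 7.51 and 8.23 in treated kidneys, 6.44, 7.86 and 8.80 in aged vehicle kidneys, and 8.98, 9.75 and 10.7 in young vehicle kidneys. No aged vehicle kidney reached the lowest young vehicle kidney, and Scpep1 fell by 0.34 ± 0.047 (SE, adjusted p = 2.64e-06). Smaller falls with age were seen for Glb1, beta-galactosidase, with a log2 change of -0.32, Ctsb, cathepsin B, with -0.28, Gaa, acid alpha-glucosidase, with -0.24, Lamp1, the main membrane glycoprotein, with -0.21, and Smpd1, acid sphingomyelinase, with -0.15. The adjusted p of these 5 lay between 0.000813 for Lamp1 and 0.0252 for Gaa.

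**Figure D2:**
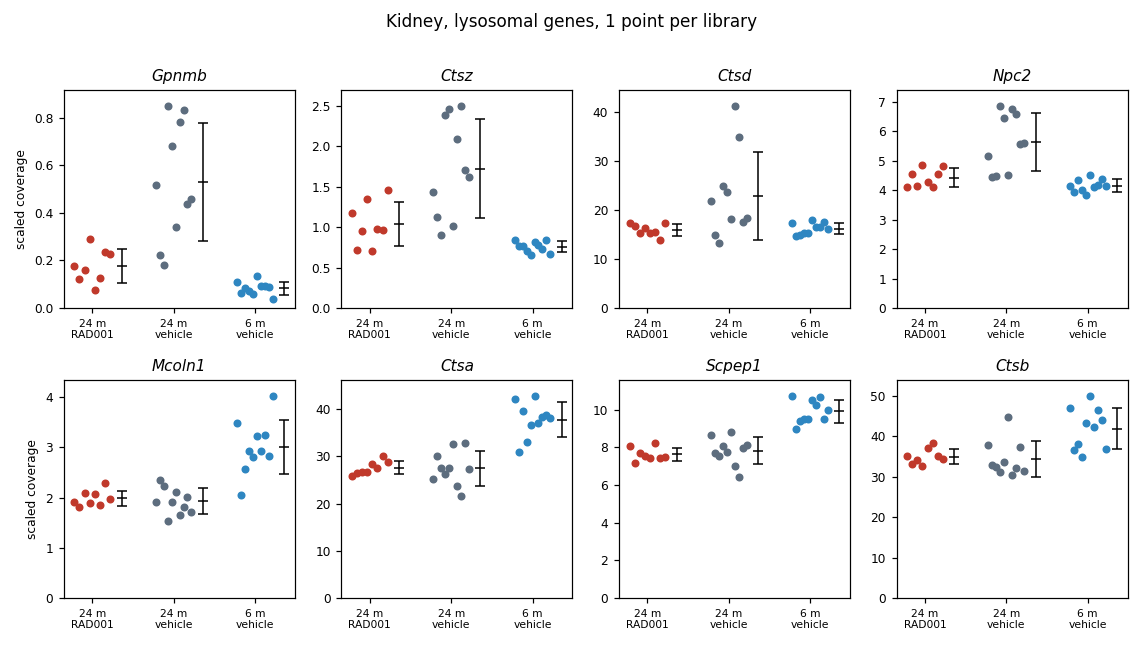
Scaled coverage of 8 lysosomal genes in kidney, 1 point per library, with treated, aged vehicle and young vehicle groups from left to right and the mean ± SD beside each group. Gpnmb, Ctsz, Ctsd and Npc2 reach their highest values in aged vehicle kidneys, whereas Mcoln1, Ctsa, Scpep1 and Ctsb are low in both aged groups.

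The next comparison asked what RAD001 changed in the aged kidney. None of the 20 lysosomal genes rose and 8 fell: Gpnmb, Ctsz, Ctsl, Ctsd, Npc2, Gusb, Hexa and Lipa. Of the 10 autophagy genes 5 rose, namely Map1lc3a, Bnip3, Atg5, Sqstm1 and Map1lc3b, and Becn1 fell. In all 14 of 31 genes (45.2%) were called, against 37.4% of all 10447 loci (18.3% higher, 19.1% lower). Both comparisons use the aged vehicle libraries, so opposite signs in them are not independent of each other.

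Gpnmb fell by 1.11 ± 0.20 (SE, adjusted p = 0.000108) on the log2 scale in treated against aged vehicle kidneys. Gusb, beta-glucuronidase, had a lowest, median and highest value of 0.520, 0.567 and 0.675 in treated kidneys, 0.570, 0.722 and 0.902 in aged vehicle kidneys, and 0.577, 0.654 and 0.800 in young vehicle kidneys, and fell by 0.31 ± 0.07 (SE, adjusted p = 0.00102). Npc2 fell by 0.33 ± 0.075 (SE, adjusted p = 0.00141), and 4 of 8 treated kidneys lay below the lowest aged vehicle kidney, the others within the aged vehicle range. Ctsl, at the highest coverage of all members in kidney, had 93.2, 104 and 123 in treated kidneys, 113, 137 and 221 in aged vehicle kidneys, and 101, 126 and 143 in young vehicle kidneys. It fell by 0.46 ± 0.11 (SE, adjusted p = 0.00144), and treated and aged vehicle ranges overlapped. Ctsz changed by -0.64 (adjusted p = 0.00265), Ctsd by -0.43 (adjusted p = 0.0183), Hexa, the alpha chain of beta-hexosaminidase, by -0.18 (adjusted p = 0.00507) and Lipa, lysosomal acid lipase, by -0.18 (adjusted p = 0.00671). The 3 lysosomal genes with the largest falls with age were not called with RAD001, where the log2 change was 0.05 ± 0.088 for Mcoln1, 0.02 ± 0.071 for Ctsa and -0.03 ± 0.05 for Scpep1 (SE).

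Among autophagy genes in kidney, Map1lc3a encodes an LC3 protein that is attached to the autophagosome membrane. Its lowest, median and highest values were 3.91, 4.05 and 4.55 in treated kidneys, 2.67, 3.26 and 3.67 in aged vehicle kidneys, and 2.78, 3.51 and 4.28 in young vehicle kidneys. Every treated kidney lay above every aged vehicle kidney, and Map1lc3a rose by 0.35 ± 0.064 (SE, adjusted p = 0.000160); it is the only member of 31 whose treated and aged vehicle kidneys did not overlap, as they did not in 3.25% of all loci. Map1lc3b, its close relative, had 4.12, 4.56 and 5.03 in treated kidneys, 3.60, 3.84 and 4.52 in aged vehicle kidneys, and 3.61, 4.24 and 4.66 in young vehicle kidneys and rose by 0.19 ± 0.052 (SE, adjusted p = 0.00615). Atg5, part of the complex that attaches LC3 to lipid, had 1.42, 1.56 and 1.76 in treated kidneys, 1.15, 1.26 and 1.45 in aged vehicle kidneys, and 1.44, 1.52 and 1.62 in young vehicle kidneys. It fell by 0.23 ± 0.044 (SE, adjusted p = 9.72e-05) with age and rose by 0.29 ± 0.046 (SE, adjusted p = 3.58e-05) with RAD001, so that treated kidneys overlapped young vehicle ones. Sqstm1, the cargo receptor p62, had 11.8, 12.4 and 13.5 in treated kidneys, 9.03, 10.5 and 13.2 in aged vehicle kidneys, and 10.9, 12.5 and 15.2 in young vehicle kidneys. It fell by 0.26 ± 0.064 (SE, adjusted p = 0.00167) with age and rose by 0.24 ± 0.068 (SE, adjusted p = 0.00715) with RAD001. Bnip3, a receptor that marks mitochondria for autophagy, followed the same pattern, with log2 changes of 0.31 with RAD001 (adjusted p = 0.00266) and -0.20 with age (adjusted p = 0.0293).

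Becn1, a subunit of the lipid kinase complex that starts the autophagosome, went the other way. It had 2.21, 2.56 and 2.79 in treated kidneys, 2.77, 2.94 and 3.19 in aged vehicle kidneys, and 2.63, 2.84 and 3.05 in young vehicle kidneys and fell by 0.21 ± 0.041 (SE, adjusted p = 0.000235) with RAD001. Ulk1, the starting kinase, rose by 0.18 ± 0.067 (SE, adjusted p = 0.0317) with age and stood at a log2 change of -0.14 ± 0.071 (not called, adjusted p = 0.132) with RAD001, at coverage between 0.110 and 0.239. Tfeb had 0.447, 0.556 and 0.674 in treated kidneys, 0.386, 0.570 and 0.669 in aged vehicle kidneys, and 0.499, 0.629 and 0.690 in young vehicle kidneys. Its groups overlapped widely, with log2 changes of 0.03 ± 0.074 with RAD001 (adjusted p = 0.797) and -0.14 ± 0.07 with age (adjusted p = 0.0986). Wipi1, Gabarapl1 and Atg7 were called in neither comparison, nor were the lysosomal genes Lamp2, Gla and Psap.

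**Figure D3:**
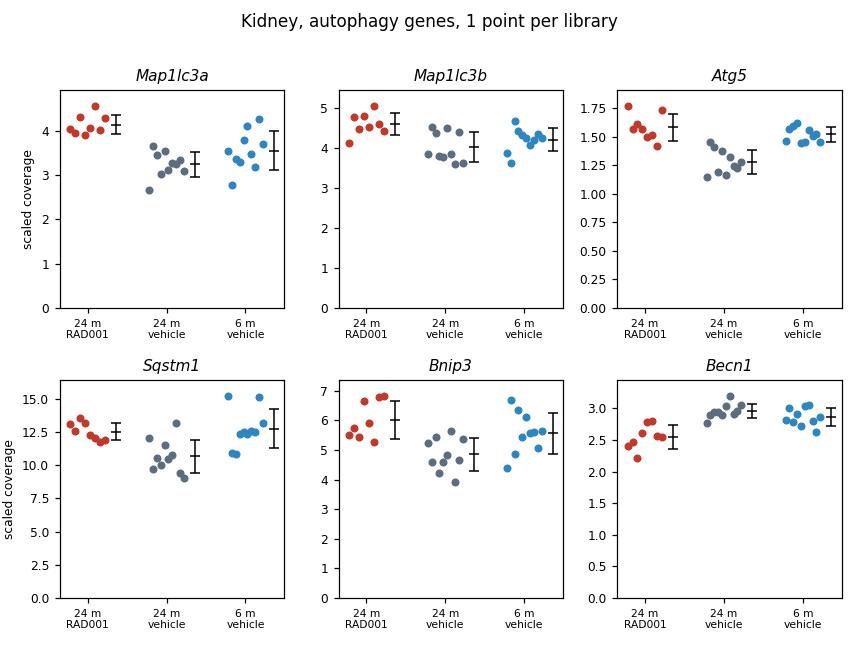
Scaled coverage of 6 autophagy genes in kidney, 1 point per library, with treated, aged vehicle and young vehicle groups from left to right and the mean ± SD beside each group. All treated points of Map1lc3a lie above all aged vehicle points, and Becn1 is lowest in treated kidneys.

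Set against young vehicle kidneys, treated kidneys differed in 10 of 31 members (32.3%, with 26.5% of all loci called), 2 higher and 8 lower, beside 12% and 14.5% of all loci in these directions. Those lower were Scpep1, Mcoln1, Ctsa, Hexa, Ctsb, Glb1, Gusb and Becn1, and those higher were Map1lc3a and Gpnmb. Scpep1 fell by 0.37 ± 0.05 (SE, adjusted p = 2.82e-06) and Ctsa fell by 0.45 ± 0.071 (SE, adjusted p = 2.51e-05), and in both every treated kidney lay below every young vehicle kidney. Groups without overlap were found for these 2 of 31 members and for 4.68% of all loci. Mcoln1 fell by 0.56 ± 0.088 (SE, adjusted p = 2.45e-05). Hexa, with 9.64, 9.99 and 10.7 in treated kidneys, 10.6, 11.3 and 12.9 in aged vehicle kidneys, and 10.2, 11.9 and 14.1 in young vehicle kidneys, fell by 0.26 ± 0.049 (SE, adjusted p = 0.000274), and Becn1 fell by 0.16 ± 0.041 (SE, adjusted p = 0.00324). Map1lc3a rose by 0.22 ± 0.064 (SE, adjusted p = 0.0102) and Gpnmb rose by 0.57 ± 0.20 (SE, adjusted p = 0.0321). Map1lc3b, Sqstm1 and Tfeb were not called, with log2 changes of 0.13 ± 0.052, -0.02 ± 0.068 and -0.12 ± 0.074 (SE).

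Several properties of the kidney libraries moved with these changes. Of 20 macrophage markers found, 15 were tested, and 15 rose with age and 13 fell with RAD001; Marco, Vsig4, Cd5l and Clec4f were under 0.01. Their summed coverage ranged from 24.8 to 47.0 in treated, 28.6 to 81.4 in aged vehicle and 17.4 to 27.3 in young vehicle kidneys. The aged vehicle kidneys of replicates 4, 5, 7 and 8 had the 4 highest macrophage sums, 69.3 to 81.4, and the 4 lowest tubule marker sums, 173 to 218. The same 4 libraries had the 4 highest values of Gpnmb, Ctsz, Ctsd and Npc2 among aged vehicle kidneys, and none of the 4 highest of Mcoln1, Ctsa, Glb1, Gaa, Lamp1, Lipa, Gabarapl1, Map1lc3b or Wipi1. The other members lay between. How many of all loci rank these 4 libraries highest was not computed. These libraries held 3 of the 4 highest values of Gusb, which was not called with age, and 3 of Sqstm1, which fell with age. They held 2 of the 4 highest values of Npc1, which rose. Of other genes that fell with age, they held 2 for Smpd1 and Atg5 and 1 for Scpep1, Ctsb and Bnip3. T cell markers rose with age in 8 of 8 tested and fell with RAD001 in 7 of 8, with sums of 1.11 to 2.43 in treated, 1.44 to 4.41 in aged vehicle and 0.929 to 1.36 in young vehicle kidneys. Of 10 tubule markers 6 rose with RAD001 and 5 fell with age, and their sum ranged from 253 to 306 in treated, 173 to 303 in aged vehicle and 265 to 316 in young vehicle kidneys. The part of these cell types in the result was not tested.

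7SL, the abundant non-coding RNA of the signal recognition particle, had a deposited value of 33651 ± 3931 in treated, 25258 ± 2573 in aged vehicle and 25407 ± 1817 in young vehicle kidneys (SD, n = 8, 10 and 10). With the log2 7SL value as a covariate, 1 of the 14 members called with RAD001, Hexa, was still called, all 14 kept their sign, and 4.22% of all loci were called. Their median absolute log2 change was 0.267 with the covariate and 0.310 without, and the median SE was 0.110 with it and 0.0687 without. The covariate moved Map1lc3a to 0.12 (adjusted p = 0.460), Lipa to -0.05 (adjusted p = 0.719), Sqstm1 to 0.13 (adjusted p = 0.494) and Atg5 to 0.17 (adjusted p = 0.166). Against young vehicle kidneys 4 of the 10 members stayed called, with 10.3% of all loci called. All 17 members called with age kept their call under the covariate, where 43.3% of all loci were called. Skeletal muscle markers summed to 0.183 to 11.1 in treated kidneys, 0.120 to 0.248 in aged vehicle and 0.0774 to 0.180 in young vehicle kidneys, and 6 of 8 treated kidneys exceeded every vehicle kidney. The highest treated sum is 0.193% of the median sum of young vehicle muscles, each scaled within its own tissue. The part of muscle RNA in the result was not tested.

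The other genes of the 2 pathways, 134 tested in kidney, gave 13 rises and 39 falls with age, and 25 rises and 21 falls with RAD001. The shares called, 38.8% with age and 34.3% with RAD001, are somewhat below the 43% and 37.4% of all loci. The lists were drawn up with earlier results known, and the genes named from each list are the called ones of smallest p in each direction. With age, 9 of 31 other hydrolases and activators rose, led by Ctss, a cathepsin abundant in macrophages (log2 change 1.02), and Ppt1, palmitoyl-protein thioesterase (0.46), and 9 fell, led by Lgmn, legumain (-0.35), and Cpq (-0.32). None of 19 subunits of the vacuolar proton pump, which acidifies lysosomes, rose and 8 fell, led by Atp6v1a (-0.31) and Atp6v0d1 (-0.27). Of 20 other membrane proteins 3 rose, with Laptm5 (0.93) and Tpcn2 (0.28) first, and 4 fell, with Tpcn1 (-0.39) and Slc17a5 (-0.28) first. Of 9 genes that sort enzymes to the lysosome 3 fell, led by Gga2 (-0.35) and Igf2r, the mannose 6-phosphate receptor (-0.49), and of 14 TFEB relatives and lysosomal mTORC1 regulators 4 fell, led by Lamtor5 (-0.64) and Lamtor1 (-0.31). Of the other autophagy genes, 4 of 13 for initiation fell, led by Wdr45 (-0.20) and Pik3r4 (-0.23). For conjugation, Atg16l2 rose (0.29) and Gabarap (-0.12) and Atg12 (-0.14) fell among 10, and of 18 receptors and fusion genes 5 fell, led by Rab7a (-0.14) and Nbr1 (-0.19). The adjusted p of the genes named here ranged over 3.93e-08 to 0.0370.

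With RAD001, 12 of the 31 other hydrolases fell in kidney, among them Ctss (log2 change -0.62), and Cpq rose (0.34). By contrast 8 of 19 proton pump subunits rose, led by Atp6v0b (0.24) and Atp6v0d1 (0.19), and none fell. Of the membrane proteins, Tpcn1 (0.39) and Ostm1 (0.17) rose and Laptm5 (-0.63) fell. M6pr, a mannose 6-phosphate receptor, fell (-0.24). Among the regulators 3 rose, with Lamtor4 (0.23) and the TFEB relative Tfec (0.29) first, and another relative, Tfe3, fell (-0.28). For autophagy, 4 of 13 initiation genes rose, led by Wdr45 (0.30) and Pik3r4 (0.17). Of 10 conjugation genes Atg12 (0.28) and Atg4d (0.22) rose and Atg16l1 (-0.25) and Atg16l2 (-0.23) fell. Of 18 receptors and fusion genes 5 rose, led by Bnip3l (0.23) and Fam134b (0.44), and 3 fell, with Tecpr1 (-0.24) and Snap29 (-0.13) first. The adjusted p of these genes ranged over 2.22e-05 to 0.0426.

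In liver, age was accompanied by a rise in 7 of 20 lysosomal genes, Gpnmb, Scpep1, Ctsd, Npc2, Ctsl, Ctsb and Hexa, and a fall in Smpd1 and Ctsa. The autophagy genes Bnip3 and Map1lc3b also rose. In all 11 of 31 members (35.5%) were called, 9 of them higher and 2 lower, against 16.6% of all 8991 loci tested, 7.86% higher and 8.71% lower. The median change of the members was 0.06, against 0.0023 for all loci.

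Smpd1, acid sphingomyelinase, had a lowest, median and highest value of 3.33, 3.78 and 4.29 in treated livers, 3.01, 3.46 and 3.61 in aged vehicle livers, and 3.94, 4.27 and 4.70 in young vehicle livers. Every aged vehicle liver lay below every young vehicle liver, and Smpd1 fell by 0.36 ± 0.05 (SE, adjusted p = 4.96e-06) with age. Ctsd had 5.54, 6.79 and 7.49 in treated livers, 6.55, 7.72 and 9.13 in aged vehicle livers, and 5.01, 5.95 and 6.51 in young vehicle livers. It rose by 0.38 ± 0.062 (SE, adjusted p = 5.80e-05), and aged vehicle livers all lay above the young vehicle ones. Smpd1 and Ctsd were the 2 of 31 members without overlap here, beside 1.61% of all loci. Gpnmb had 0.175, 0.191 and 0.428 in treated livers, 0.202, 0.353 and 0.808 in aged vehicle livers, and 0.102, 0.141 and 0.202 in young vehicle livers and rose by 0.91 ± 0.15 (SE, adjusted p = 3.65e-05). The lowest aged vehicle liver just reached the highest young vehicle liver, and 1 aged vehicle liver, replicate 2, had more than 1.5 times the Gpnmb value of any other. Npc2 had 3.48, 4.33 and 4.86 in treated livers, 3.96, 4.74 and 5.47 in aged vehicle livers, and 3.34, 3.61 and 4.40 in young vehicle livers and rose by 0.36 ± 0.064 (SE, adjusted p = 0.000132). Scpep1 rose with a log2 change of 0.43, Ctsl with 0.29, Ctsb with 0.22 and Hexa with 0.19, and Ctsa fell with -0.18; their adjusted p lay between 0.00175 for Scpep1 and 0.0364 for Hexa.

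Of the autophagy genes in liver, Map1lc3b had 1.86, 2.14 and 2.45 in treated livers, 1.90, 2.17 and 3.36 in aged vehicle livers, and 1.58, 1.76 and 1.98 in young vehicle livers, and rose by 0.35 ± 0.073 (SE, adjusted p = 0.00101) with age. Bnip3 had 1.07, 1.5 and 2.04 in treated livers, 1.90, 2.63 and 3.33 in aged vehicle livers, and 1.58, 1.74 and 2.38 in young vehicle livers, and rose by 0.40 ± 0.11 (SE, adjusted p = 0.0124) with age. The groups overlapped in both genes. Sqstm1, with 21.7, 29.9 and 37.4 in treated livers, 21.7, 24.3 and 31.9 in aged vehicle livers, and 15.5, 20.5 and 28.4 in young vehicle livers, stood at a log2 change of 0.32 ± 0.11 (not called, adjusted p = 0.0508) with age, and Tfeb, with 0.128, 0.176 and 0.221 in treated livers, 0.0952, 0.111 and 0.185 in aged vehicle livers, and 0.0991, 0.135 and 0.197 in young vehicle livers, stood at a log2 change of -0.06 ± 0.086 (not called, adjusted p = 0.702).

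With RAD001, 10 of 20 lysosomal genes fell in liver and 1 rose. Scpep1, Ctsl, Lipa, Gaa, Lamp2, Ctsd, Gusb, Glb1, Npc2 and Gpnmb fell, and Smpd1 rose. Of the autophagy genes Map1lc3a, Ulk1 and Wipi1 rose and Bnip3 fell. The 15 called members are 48.4% of 31, against 15.7% of all 8991 loci, of which 7.62% were higher and 8.13% lower. The 20 lysosomal genes had a median change of -0.17 and the 10 autophagy genes of 0.06, against -0.00095 for all loci.

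Scpep1 had a lowest, median and highest value of 0.939, 1.10 and 1.45 in treated livers, 1.35, 1.73 and 2.09 in aged vehicle livers, and 0.828, 1.30 and 1.49 in young vehicle livers. It fell by 0.54 ± 0.10 (SE, adjusted p = 0.00134) with RAD001, and all treated livers lay within the young vehicle range. Ctsl had 23.8, 32.2 and 39.1 in treated livers, 31.2, 42.3 and 50.6 in aged vehicle livers, and 28.8, 33.0 and 41.6 in young vehicle livers and fell by 0.40 ± 0.095 (SE, adjusted p = 0.00832). Gusb had 0.784, 0.889 and 1.02 in treated livers, 0.897, 1.06 and 1.16 in aged vehicle livers, and 0.782, 0.960 and 1.14 in young vehicle livers and fell by 0.23 ± 0.063 (SE, adjusted p = 0.0153). Treated and aged vehicle livers overlapped in all of these genes. Ctsd fell by 0.23 ± 0.066 (SE, adjusted p = 0.0198). The other falls had log2 changes of -0.37 for Lipa, -0.28 for Gaa, -0.26 for the membrane protein Lamp2, -0.22 for Glb1, -0.20 for Npc2 and -0.45 for Gpnmb, and Smpd1 rose with 0.16. Their adjusted p lay between 0.0330 for Glb1 and 0.0460 for Gpnmb.

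Bnip3 fell by 0.73 ± 0.12 (SE, adjusted p = 0.000416) with RAD001 in liver, where its treated median of 1.5 was below the young vehicle median of 1.74. Map1lc3a had 0.856, 1.11 and 1.29 in treated livers, 0.514, 0.841 and 0.990 in aged vehicle livers, and 0.564, 0.679 and 1.02 in young vehicle livers, and rose by 0.46 ± 0.10 (SE, adjusted p = 0.00484). Ulk1 rose with a log2 change of 0.36 (adjusted p = 0.0207) and Wipi1, a phosphoinositide-binding protein of the forming autophagosome, with 0.27 (adjusted p = 0.0457), both at coverage under 0.4. Sqstm1 stood at a log2 change of 0.19 ± 0.12 (not called, adjusted p = 0.288), Map1lc3b stood at a log2 change of -0.08 ± 0.078 (not called, adjusted p = 0.475) and Tfeb stood at a log2 change of 0.25 ± 0.092 (not called, adjusted p = 0.0563). Gabarapl1, Becn1, Atg5 and Atg7 were called in neither comparison in liver, nor were Ctsz, Lamp1, Gla, Npc1, Psap and Mcoln1.

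**Figure D4:**
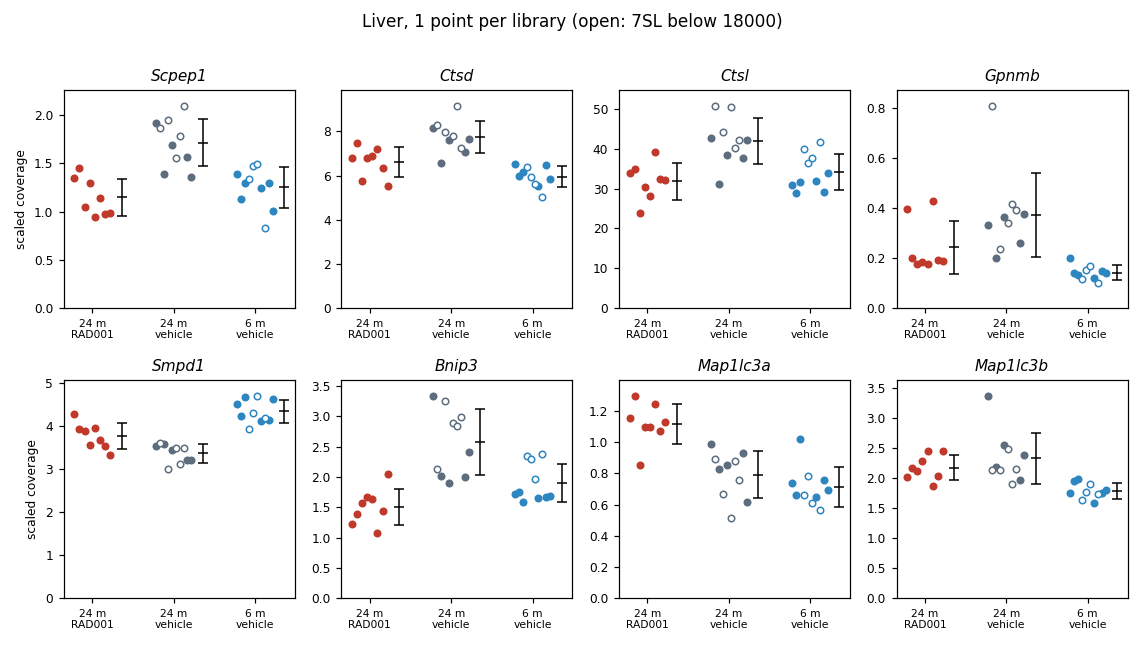
Scaled coverage of 8 members in liver, 1 point per library, with treated, aged vehicle and young vehicle groups from left to right and the mean ± SD beside each group; open points are the 9 vehicle libraries whose deposited 7SL value was below 18000. Scpep1, Ctsd, Ctsl and Bnip3 are lower in treated than in aged vehicle livers and Map1lc3a is higher, with overlap.

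7SL was low in part of the liver vehicle libraries: 5 of 10 aged vehicle and 4 of 10 young vehicle livers had a deposited value under 18000, from 10001 to 16998, and no treated liver did, with 22220 ± 917 (SD, n = 8). Without these 9 libraries, an alternative added after seeing the data, 2 of the 15 members were called with RAD001, Scpep1 with -0.43 (adjusted p = 0.0465) and Bnip3 with -0.59 (adjusted p = 0.0311). All 15 kept their sign, their median absolute log2 change was 0.276 without these libraries and 0.285 with them, and 1.40% of all loci were called. Gpnmb moved to -0.28 (adjusted p = 0.387), and Glb1 to -0.15 (adjusted p = 0.294). With 7SL as a covariate 6 members stayed called, Bnip3, Scpep1, Map1lc3a, Gaa, Ctsl and Ctsd, and 6.57% of all loci were called. The count was 7 without treated replicate 3, 8 without aged vehicle replicate 4, 6 or 7 and 9 without treated replicate 7 or 8. The share of all loci was not computed with these libraries left out. For the age comparison 5 of 11 members were called without the 9 libraries, Smpd1, Npc2, Map1lc3b, Gpnmb and Ctsd, and all 11 kept their sign, with 5.85% of all loci called. Within the 9 libraries alone, 5 aged and 4 young, all 11 again had the same sign and 3 of them, Ctsd, Gpnmb and Smpd1, were called, with 5.55% of all loci called.

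Against young vehicle livers, 11 of 31 members (35.5%) differed in treated livers, 5 higher and 6 lower, while 34.9% of all loci were called (17% higher, 18% lower). Map1lc3a rose by 0.59 ± 0.10 (SE, adjusted p = 7.27e-05) and Ulk1, with 0.219, 0.276 and 0.363 in treated livers, 0.133, 0.195 and 0.326 in aged vehicle livers, and 0.0940, 0.151 and 0.211 in young vehicle livers, rose by 0.61 ± 0.10 (SE, adjusted p = 7.98e-05). Every treated liver lay above every young vehicle liver in Ulk1, the 1 member of 31 without overlap, beside 4.23% of all loci. Lamp2, with 8.38, 9.59 and 11.3 in treated livers, 10.3, 11.1 and 13.8 in aged vehicle livers, and 9.33, 12.4 and 16.0 in young vehicle livers, fell by 0.38 ± 0.085 (SE, adjusted p = 0.00106). Ctsa, with 5.32, 6.74 and 7.17 in treated livers, 6.12, 6.91 and 8.24 in aged vehicle livers, and 6.92, 7.86 and 8.81 in young vehicle livers, fell by 0.27 ± 0.061 (SE, adjusted p = 0.00119). Both membrane protein and enzyme overlapped between the groups. Smpd1 fell by 0.20 ± 0.053 (SE, adjusted p = 0.00420), and Glb1, with 0.325, 0.364 and 0.421 in treated livers, 0.347, 0.449 and 0.555 in aged vehicle livers, and 0.381, 0.460 and 0.558 in young vehicle livers, fell by 0.25 ± 0.069 (SE, adjusted p = 0.00640). Sqstm1 rose by 0.51 ± 0.12 (SE, adjusted p = 0.00203), Map1lc3b rose by 0.27 ± 0.078 (SE, adjusted p = 0.00860), and Tfeb stood at a log2 change of 0.19 ± 0.092 (not called, adjusted p = 0.0968). Gpnmb rose as well, and Gaa and Bnip3 fell, with log2 changes of 0.46 for Gpnmb, -0.27 for Gaa and -0.33 for Bnip3 (adjusted p = 0.0214, 0.0297 and 0.0315).

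Macrophage markers in liver rose with age in 7 of 18 tested and fell with RAD001 in 1, with sums of 37.4 to 53.1 in treated, 32.3 to 54.2 in aged vehicle and 27.6 to 40.3 in young vehicle livers, and Trem2 was under 0.01. Hepatocyte markers fell with RAD001 in 4 of 10 and with age in 3 of 10, and their sums ranged from 3511 to 5739 in treated, 3801 to 7256 in aged vehicle and 4874 to 5675 in young vehicle livers. Their part in the result was not tested.

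Of 127 other lysosome and autophagy genes tested in liver, 15 rose and 16 fell with age, and 6 rose and 22 fell with RAD001. The shares called were 24.4% with age, against 16.6% of all loci, and 22% with RAD001, against 15.7% of all loci. With age the hydrolases Dnase2 (log2 change 0.36) and Lgmn (0.45) led 4 that rose of 31, and Cpq (-0.90) and Gm2a (-0.36) led 3 that fell. Of 19 membrane proteins 3 rose, led by Laptm5 (0.35) and Scarb2 (0.16), and 4 fell, led by Tpcn1 (-0.35) and Tmem192 (-0.24). Proton pump subunits rose in 3 of 16, led by Atp6v1d (0.41) and Atp6v1f (0.19). Among sorting genes Gnptg rose (0.27) and Gga2 fell (-0.57), and among regulators Rragc (0.22) and Lamtor1 (0.17) rose and Lamtor4 fell (-0.19). Autophagy initiation genes fell in 4 of 13, led by Zfyve1 (-0.27) and Pik3c3 (-0.32). Atg16l2 (0.45) and Fam134b, a receptor for autophagy of the endoplasmic reticulum (0.73), rose, and Gabarapl2 (-0.29), Optn (-0.19) and Pink1 (-0.29) fell. The adjusted p of the genes named ranged over 3.97e-07 to 0.0451.

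With RAD001 in liver, 4 of 31 other hydrolases fell and none rose, with Aga (-0.36) among those that fell, and 6 of 16 proton pump subunits fell and none rose, with Atp6v1e1 (-0.29) and Atp6v1c1 (-0.31) first. The tetraspanin Cd63 (-0.50) and M6pr (-0.15) fell. Of the regulators, Tfe3 rose (0.22) and 3 fell, led by Fnip1 (-0.62) and Flcn, folliculin (-0.29). Autophagy initiation genes rose in 3 of 13, led by Atg9a (0.33) and Wipi2 (0.31), while Rb1cc1 fell (-0.25). Atg3 (-0.29) and Atg4c (-0.25) fell among conjugation genes. Of 18 receptors and fusion genes Tecpr1 (0.27) and Plekhm1 (0.25) rose and 4 fell, led by Vps41 (-0.30) and Snap29 (-0.26). The adjusted p of these genes ranged over 0.000401 to 0.0433.

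In gastrocnemius, 5 of 20 lysosomal genes rose with age, Gpnmb, Ctsl, Ctsb, Lamp2 and Ctsz, and Lipa and Smpd1 fell. The autophagy genes Sqstm1, Map1lc3b and Gabarapl1 rose and none fell. The 10 called members, 8 higher and 2 lower, are 32.3% of 31, against 35.4% of all 8836 loci tested, 17% higher and 18.4% lower, so the count is near the background.

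Ctsl in muscle had a lowest, median and highest value of 5.32, 6.53 and 8.95 in treated muscles, 6.53, 8.11 and 11.9 in aged vehicle muscles, and 3.79, 4.12 and 5.0 in young vehicle muscles. All aged vehicle and all treated muscles lay above every young vehicle muscle, and Ctsl rose by 0.98 ± 0.088 (SE, adjusted p = 4.71e-10) with age. Ctsl and Sqstm1 were the 2 of 31 members without overlap of aged and young vehicle muscles, beside 5.47% of all loci. Gpnmb had 0.237, 0.581 and 1.31 in treated muscles, 0.349, 0.834 and 1.71 in aged vehicle muscles, and 0.115, 0.165 and 0.477 in young vehicle muscles and rose by 1.75 ± 0.23 (SE, adjusted p = 6.54e-07). The highest young vehicle muscle, replicate 8, lay within the aged range. Lamp2 had 1.48, 1.78 and 2.04 in treated muscles, 1.83, 2.09 and 2.28 in aged vehicle muscles, and 1.47, 1.74 and 1.88 in young vehicle muscles and rose by 0.24 ± 0.059 (SE, adjusted p = 0.00158). Ctsb had 4.23, 5.14 and 6.30 in treated muscles, 4.05, 5.08 and 5.67 in aged vehicle muscles, and 3.10, 3.99 and 5.50 in young vehicle muscles and rose by 0.33 ± 0.084 (SE, adjusted p = 0.00283), with overlap. Ctsz rose with a log2 change of 0.20, and Lipa and Smpd1 fell with -0.18 and -0.17, at adjusted p of 0.0123, 0.0345 and 0.00665.

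Sqstm1 in muscle had 21.2, 23.9 and 28.2 in treated muscles, 22.0, 26.7 and 32.8 in aged vehicle muscles, and 15.7, 18.4 and 19.5 in young vehicle muscles. No young vehicle muscle reached the lowest aged vehicle muscle, and Sqstm1 rose by 0.53 ± 0.063 (SE, adjusted p = 1.11e-07). Map1lc3b had 3.38, 3.59 and 3.91 in treated muscles, 3.14, 3.59 and 4.07 in aged vehicle muscles, and 2.44, 2.89 and 3.21 in young vehicle muscles and rose by 0.33 ± 0.045 (SE, adjusted p = 1.20e-06). Gabarapl1, of the same family as LC3, rose by 0.31 ± 0.067 (SE, adjusted p = 0.000450). Tfeb had 0.887, 1.04 and 1.39 in treated muscles, 0.727, 0.923 and 1.05 in aged vehicle muscles, and 0.758, 1.09 and 1.22 in young vehicle muscles and stood at a log2 change of -0.17 ± 0.075 (not called, adjusted p = 0.0767) with age.

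RAD001 left nearly all of these genes uncalled in muscle: 2 of 31 (6.45%) fell, Ctsl and Gusb, and none rose, against 3.37% of all 8836 loci (1.72% higher, 1.65% lower). Ctsl fell by 0.33 ± 0.094 (SE, adjusted p = 0.0482), and its treated and aged vehicle muscles overlapped. Gusb, with 0.120, 0.148 and 0.171 in treated muscles, 0.132, 0.201 and 0.248 in aged vehicle muscles, and 0.149, 0.188 and 0.223 in young vehicle muscles, fell by 0.25 ± 0.068 (SE, adjusted p = 0.0409). Sqstm1 stood at a log2 change of -0.12 ± 0.067 (not called, adjusted p = 0.303), Map1lc3b stood at a log2 change of -0.01 ± 0.048 (not called, adjusted p = 0.965) and Tfeb stood at a log2 change of 0.21 ± 0.08 (not called, adjusted p = 0.135). Gpnmb stood at a log2 change of -0.43 ± 0.25 (not called, adjusted p = 0.317), with the widest SE of the 31. When 1 library at a time was left out the count ran from 0 to 3, and Ctsl lost its call in 22 of the 28 cases and Gusb in 11. The share of all loci was not computed for these cases.

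**Figure D5:**
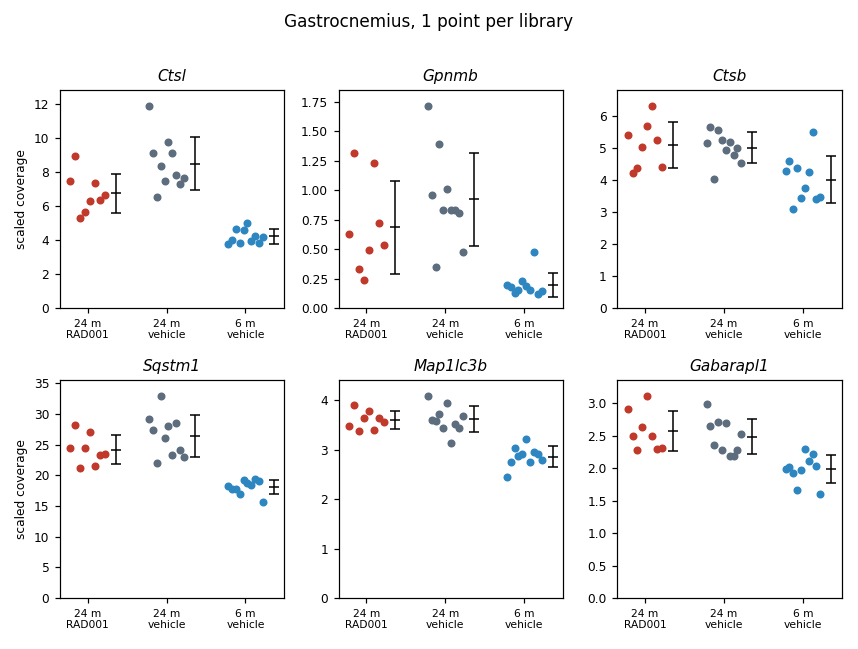
Scaled coverage of 6 members in gastrocnemius, 1 point per library, with treated, aged vehicle and young vehicle groups from left to right and the mean ± SD beside each group. Ctsl and Sqstm1 of both aged groups lie above every young vehicle muscle, and treated and aged vehicle points overlap in all 6 genes.

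Treated muscles differed from young vehicle muscles in 14 of 31 members (45.2%, against 36.5% of all loci), 9 higher and 5 lower, beside 17.9% and 18.6% of all loci. Ctsl rose by 0.66 ± 0.094 (SE, adjusted p = 2.18e-06), Sqstm1 rose by 0.41 ± 0.067 (SE, adjusted p = 1.88e-05) and Map1lc3b rose by 0.32 ± 0.048 (SE, adjusted p = 4.37e-06), and in these 3 of 31 members every treated muscle lay above every young vehicle muscle, beside 6.61% of all loci without overlap in either direction. Gpnmb rose by 1.32 ± 0.25 (SE, adjusted p = 0.000102) and Ctsb rose by 0.34 ± 0.089 (SE, adjusted p = 0.00310). Lipa, with 0.288, 0.366 and 0.440 in treated muscles, 0.335, 0.409 and 0.517 in aged vehicle muscles, and 0.402, 0.469 and 0.560 in young vehicle muscles, fell by 0.30 ± 0.072 (SE, adjusted p = 0.00138). Ctsz, Npc1, Gabarapl1 and Atg7 also rose and Ctsd, Gusb, Gla and Bnip3 fell, with log2 changes between -0.25 for Gla and 0.36 for Gabarapl1. Tfeb stood at a log2 change of 0.04 ± 0.08 (not called, adjusted p = 0.755). Becn1, Ulk1, Wipi1, Map1lc3a and Atg5 were called in no comparison in muscle, nor were Ctsa, Lamp1, Hexa, Glb1, Gaa, Npc2, Psap, Scpep1 and Mcoln1.

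Macrophage markers rose with age in 11 of 15 tested in muscle and in none with RAD001; Marco, Vsig4, Cd5l and Clec4f were under 0.01. Their sum ranged from 9.0 to 22.5 in treated, 13.4 to 17.7 in aged vehicle and 9.87 to 11.8 in young vehicle muscles. Fibre markers fell with age in 7 of 10, with sums of 4760 to 5600 in treated, 3923 to 5543 in aged vehicle and 5170 to 6032 in young vehicle muscles. Their part in the result was not tested.

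Of 123 other lysosome and autophagy genes tested in muscle, 22 rose and 18 fell with age, 32.5% beside 35.4% of all loci. Cd63 (0.83) and Laptm5 (0.40) led 4 membrane proteins that rose of 16, and Abcb9 fell (-0.44). Of 30 hydrolases 5 rose, led by Lgmn (0.51) and Ctss (0.59), and Ppt2 (-0.34) and Galns (-0.27) fell. Of 16 proton pump subunits 3 rose, led by Atp6v0d1 (0.24) and Atp6v1h (0.28), and Atp6v0b fell (-0.17). Igf2r (0.39) and Sort1 (0.22) rose among 8 sorting genes. Of 13 regulators Rraga rose (0.16) and 6 fell, led by Rragd (-0.48) and Fnip1 (-0.42). Of 13 initiation genes 3 rose, led by the lipid kinase subunits Pik3r4 (0.29) and Pik3c3 (0.14), and Ulk2 (-0.21) and Rb1cc1 (-0.13) fell. Atg16l2 rose (0.27) and Atg4d fell (-0.18). Of 17 receptors and fusion genes 3 rose, led by Nbr1 (0.19) and Park2, parkin (0.31), and 5 fell, led by Optn (-0.25) and Snap29 (-0.16). With RAD001 none rose and 1 fell (0.813%, beside 3.37% of all loci), Vps41 (-0.16). The adjusted p of the genes named ranged over 2.62e-09 to 0.0342 for age and was 0.0443 for Vps41.

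Whether a change differed between tissues was tested with the difference itself, in a joint fit of the libraries of both tissues. For RAD001, 11 of 31 members differed between kidney and liver, where 27% of all loci did, 11 between kidney and gastrocnemius (28.3%) and 2 between liver and gastrocnemius (4.34%). For age, 15 differed between kidney and liver (24.2%), 16 between kidney and gastrocnemius (34.6%) and 10 between liver and gastrocnemius (22.4%). Bnip3 had the largest difference with RAD001, a rise in kidney and a fall in liver. Scpep1 fell with RAD001 in liver and was not called in kidney, and with age it rose in liver and fell in kidney. Sqstm1 fell with age in kidney and rose in gastrocnemius, and Mcoln1 fell in kidney alone among the 3 tissues, with the difference from both other tissues called. Ctsd rose with age in liver and was not called in gastrocnemius, where its sign was negative, and Ctsl rose more in gastrocnemius than in liver, with the difference from kidney called as well. The sizes of these differences are given among the results for a closer look.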

How the data were processed

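Total RNA-seq libraries were made from about 30 mg of frozen tissue powder each, with RNA integrity numbers above 8, per the labels' protocols. Reads were aligned with STAR 2.4.5a and the build is rn5, per the submitters' processing notes; the sources used here do not give the tool that summarised them per locus. The deposited signal is read coverage per base of exon times a factor per library, as read from the values; the authors' files hold no counts, so no interval from counts was given. Within each tissue, loci that reached 0.1 in 8 or more libraries were scaled by a trimmed mean of log ratios (30% off each side) and tested as log2(coverage + 0.1) with limma 3.58.1 in R 4.3.3, 3 group means over 28 libraries, 25 residual degrees of freedom, trended variance and Benjamini-Hochberg adjustment over all loci. Differences between tissues were tested in joint fits of both tissues. The scripts were tested on simulated data. The members and lists were chosen with earlier results of these data known. Full values are given for up to 6 called members of smallest p per tissue and comparison, up to 4 lysosomal and up to 2 for autophagy, plus Tfeb, Sqstm1 and Map1lc3b; other members are accounted for by their change or call, and Ctsz and Ctsd in kidney were added after their values were seen. Of each list of other pathway genes, up to 2 called genes of smallest p are named per direction, except some that are not reported here, and of the tests between tissues the 2 members of smallest p. Alternatives changed the scaling, the filter, the pseudocount, the libraries, the covariates, the library weights and the threshold. Pairing of libraries by replicate number within a tissue was not established, and outside the alternatives the numbers were used as names only.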

Additional observations from a re-analysis of the deposited data

Results flagged for a closer look

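Of 279 groups of 1 gene in 1 tissue and condition, 15 had a library set apart from the rest of its group by Dixon's test, where chance alone gives about 1 in 20. In kidney these were aged vehicle replicate 6 for Ctsb (44.7, the highest of 10) and for Wipi1 (0.685, highest), and treated replicate 5 for Gusb (0.675, the highest of 8). In liver, treated replicate 9 was the lowest of 8 for Gaa (0.448) and Psap (9.97), and treated replicate 3 the highest for Ulk1 (0.363). Aged vehicle livers stood apart with replicate 1 for Ctsb (15.0) and Map1lc3b (3.36), replicate 2 for Gpnmb (0.808) and replicate 6 for Ulk1 (0.326), each the highest of 10. Young vehicle liver replicate 3 was the highest for Map1lc3a (1.02). In gastrocnemius, aged vehicle replicate 3 was the highest for Ctsz (1.21) and replicate 4 the lowest for Atg5 (0.498). Young vehicle muscle replicate 8 was the highest for Gpnmb (0.477) and replicate 6 for Bnip3 (14.7).

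The response to RAD001 differed between kidney and liver in 11 of 31 members, by the test of the difference itself in limma. It differed between kidney and gastrocnemius in 11 and between liver and gastrocnemius in 2. Of all loci, 27%, 28.3% and 4.34% differed, in the same order. The difference between aged and young vehicle libraries differed between kidney and liver in 15 members. It differed between kidney and gastrocnemius in 16 and between liver and gastrocnemius in 10. For age, 24.2%, 34.6% and 22.4% of all loci differed, in the same order. Whether members differed more often than other loci was not tested. The sizes below are differences of log2 changes, the tissue named first minus the other, with its SE and the adjusted p over all loci of that fit.

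For RAD001, Bnip3 differed by 1.04 ± 0.14 (adjusted p = 4.95e-07) between kidney and liver, and Scpep1 by 0.51 ± 0.11 (adjusted p = 0.000672). Between kidney and gastrocnemius, Becn1 differed by -0.29 ± 0.057 (adjusted p = 0.000121) and Map1lc3a by 0.35 ± 0.081 (adjusted p = 0.000957). Between liver and gastrocnemius, the 2 members were Bnip3, which differed by -0.67 ± 0.15 (adjusted p = 0.00964), and Map1lc3a, which differed by 0.46 ± 0.11 (adjusted p = 0.0178). In muscle neither gene was called with RAD001.

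For age, Scpep1 differed by -0.77 ± 0.11 (adjusted p = 2.78e-07) between kidney and liver and Mcoln1 by -0.66 ± 0.11 (adjusted p = 9.30e-06). Between kidney and gastrocnemius, Sqstm1 differed by -0.79 ± 0.09 (adjusted p = 7.63e-10) and Ctsa by -0.56 ± 0.08 (adjusted p = 2.02e-07). Between liver and gastrocnemius, Ctsd differed by 0.45 ± 0.072 (adjusted p = 2.78e-06) and Ctsl by -0.69 ± 0.13 (adjusted p = 3.80e-05).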

How the results depend on the processing

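Leaving out 1 library at a time gave 14 to 16 called members for RAD001, 16 to 19 for age and 8 to 12 for treated against young vehicle in kidney. The ranges were 7 to 16, 10 to 13 and 9 to 14 in liver and 0 to 3, 9 to 11 and 11 to 16 in gastrocnemius, in the same order. With 7SL as a covariate RAD001 gave 1 in kidney (4.22% of all loci), 6 in liver (6.57%) and 0 in gastrocnemius (1.86%). Treated against young vehicle kidneys gave 4 (10.3%), and Map1lc3a turned to -0.0025 there. Without the 9 liver libraries of low 7SL, chosen after seeing the data, 2 members were called with RAD001 (1.4%) and 5 with age (5.85%). Within those 9 libraries 4 were called with age (5.55%). A filter at a value of at least 1 gave 8 for RAD001 in liver, 1 for RAD001 in gastrocnemius, 7 for treated against young vehicle muscle, 6 for the difference of kidney and liver with RAD001 and 1 for that of liver and gastrocnemius; this filter removes low members from the test. Deposited values without scaling gave 6 for treated against young vehicle kidneys (18.6% of all loci) and 0 for RAD001 in gastrocnemius (0.124%). They shifted the median of all loci by 0.128 (log2) for age in gastrocnemius. The 2 calls with RAD001 in gastrocnemius became 1 with upper quartile scaling or a pseudocount of 0.01, and 0 without a filter, with the 2 groups alone or with library weights. For the other settings the cause was not tested.

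Adjusted p under 0.01 gave 5 members for treated against young vehicle kidneys, 4 for RAD001 and 6 for age in liver and 0 for RAD001 in gastrocnemius. A change of at least 1.5-fold was reached with RAD001 by 2 members in kidney, 1 in liver and 0 in gastrocnemius, with age by 3 in kidney, 1 in liver and 2 in gastrocnemius, and for treated against young vehicle by 0 in kidney, 2 in liver and 2 in gastrocnemius. The share of all loci was computed for the 7SL covariate, the low 7SL libraries and the deposited values. It was not computed at these thresholds, under the filter at 1, with 1 library left out or for any other alternative. Whether the counts of those settings are many or few therefore cannot be judged. Over the changes of single named members, 2684 values kept their side of the threshold, 71 lost the call, 29 gained it and 1 turned. A turn of sign was counted only where the gene was called in either fit. Uncalled changes could turn too, as Tfeb with RAD001 in kidney (-0.016 to 0.063 with 1 library left out). Most of these values come from leaving out 1 library. With 7SL as a covariate 56 kept their side, 12 lost the call, 2 gained it and 1 turned. Without the liver libraries of low 7SL 19 kept their side and 7 lost the call.

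With the replicate number as a block, RAD001 gave 14 members in kidney, 12 in liver and 2 in gastrocnemius, age 16, 11 and 10, and treated against young vehicle 10, 12 and 13 in kidney, liver and gastrocnemius. The share of all loci was not computed with this block or with the blocks between tissues below. Same-numbered libraries of 2 groups in a tissue correlated between -0.26 and 0.36 in their deviations from the group means. Their mean per pair of groups was -0.033 to 0.081, so pairing by number within a tissue was not established. In gastrocnemius, odd-numbered libraries had higher sums of deposited values than even-numbered ones in every group. The sums were 45110 to 50266 against 40425 to 40767.5 in treated muscles and 50302 to 53476 against 41923 to 46271 in aged vehicle muscles. Young vehicle muscles had 48985 to 54956.5 against 38440 to 46492. What lies behind this was not tested. Between tissues, libraries of the same condition and number correlated on average by 0.122 to 0.186 for kidney and liver and by 0.0576 to 0.0795 for the pairs with gastrocnemius, where the mean over all pairs was about 0; single pairs reached from -0.226 to 0.325, so 1 rat per number was not established. Blocks by condition and number between tissues gave 12, 11 and 2 differing members for RAD001 and 16, 16 and 9 for age in the order kidney and liver, kidney and gastrocnemius, liver and gastrocnemius. Depth is known only in relative terms, and members whose group means lie under 0.2, such as Tfeb in liver, Ulk1 in muscle and Gpnmb in young kidney, are close to the pseudocount of 0.1.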
